A study of Homo sapiens with 3 samples.

Results

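Genes of G1/S control and DNA replication are the subject of this account: 51 genes picked by name that run from the D-type cyclins to the chromatin assembly factor CHAF1A. They were taken from a microarray series with 19775 genes measured. All 51 had at least 1 probe set whose platform annotation names them alone, 109 probe sets in total, and 34 of the genes had more than 1. Each gene is represented by its brightest probe set, by mean log2 signal over the arrays, and its other probe sets are given where they bear on a result. The rule is a list of names with no threshold on a measured value, drawn up with earlier results of these data known.

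The series profiled SW620, an established colorectal adenocarcinoma cell line derived from a lymph node metastasis, on Affymetrix arrays. The control cells had been infected with an empty-vector virus. The LATS2 cells carried a virus with full-length LATS2, and the LATS2N cells a virus with LATS2 residues 1 to 625, which lack the C-terminal kinase domain. All 3 groups share the virus infection and growth in DMEM with serum, and each is 1 array. The sample labels name SW620, while the design text of the series names SW480 and speaks of stable expression, and this difference could not be settled. The promoter that drives the constructs, and whether a line is 1 clone or a pool, are not given in the sources used here. Because each group is 1 array, no spread between cultures exists and no difference below has a test or a replicate check.

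Signals are MAS5 intensities on a linear scale, and every array had the same trimmed mean, 500.1. Signals under the floor of 50.5, the median over all probe sets, were raised to it before a ratio was taken. LATS2 itself was read by 4 probe sets, and the brightest gave 385, 377 and 409 on the control, LATS2 and LATS2N arrays. The next gave 206, 219 and 219, and the other 2 never reached the floor. The stretch of the transcript that they read is not known here, so they do not check the labels. Of 10 colon epithelial markers fixed for the check, 9, 10 and 9 were at or above the floor on the 3 arrays, and not all were bright. Among the bright ones the adhesion protein gene EPCAM gave 16608, 18744 and 18756, and the keratin gene KRT8 gave 30042, 33589 and 33065. Other bright markers were highest on the control array: the cadherin gene CDH1 gave 4421, 2792 and 3567, 1.58-fold lower on the LATS2 array, and the villin gene VIL1 gave 5013, 3948 and 4666, with 2 of its 4 probe sets in that direction. The intestinal factor CDX2 was dim at 177, 194 and 141, and LGALS4 reached the floor on the LATS2 array alone. KRT20 was dim too, at 109, 112 and 127, and CDH17 gave 438, 449 and 393. Of the 9 measured markers of fibroblasts, endothelium, leukocytes and red cells, 4, 3 and 4 reached the floor, with summed signals of 802, 866 and 1115. Among them the collagen gene COL1A1 gave 325, 596 and 607, 1.83-fold and 1.87-fold higher than control. The globin gene HBB gave 158, 98.3 and 251, 2.55-fold lower on the LATS2 than on the LATS2N array. The part of these markers in the results was not tested.

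Cells commit to division when D-type cyclins with CDK4 or CDK6, and then cyclin E with CDK2, phosphorylate the retinoblastoma protein RB1 and its relatives RBL1 and RBL2. This frees E2F factors, which switch on the genes for origin licensing, the replicative helicase, DNA polymerases and nucleotide synthesis. LATS2 is a Hippo pathway kinase that restrains YAP and TAZ. It is also known to act on the kinase DYRK1A, which promotes assembly of DREAM, a complex of RBL2 or RBL1 with E2F4 and the MuvB proteins that holds E2F target genes down in quiescent cells.

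The choice of the genes did not read promoter sequence. Many of them belong to the classes that E2F factors switch on, so the shares below are not independent of how the lists were chosen. A window of 300 bases around each RefSeq transcription start (250 before and 50 after, GRCh38.p14) was searched on both strands for the E2F words TTTGGCGC and TTTCGCGC, which can overlap when they lie on opposite strands. Of the 43 members with a window in the table, 14 held at least 1 match (32.6%), against 382 of all 27305 genes (1.40%). Counted over windows, the shares were 14 of 56 (25%) and 403 of 35116 (1.15%). The CHR word TTTGAA, which the MuvB proteins recognise in mitotic promoters, was found in 2 of the 43 members, E2F3 and RRM1 (4.65%), in 12 of 17 genes of a mitosis list fixed for comparison (70.6%) and in 18.2% of all genes. No window was found in the table for CCND1, CCND2, CCNE2, CDK2, E2F8, MCM4, MCM5 and GINS4. A match describes these letters and not a bound site.

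Stretches that lie before the start of 5 members are shown, because these genes carry the letters and recur in the results. Capitals mark the E2F words, each line reads 5′ to 3′ on the strand of the gene, and all are from RefSeq, GRCh38.p14.
E2F1, chr20:33686386-33686435 on the minus strand: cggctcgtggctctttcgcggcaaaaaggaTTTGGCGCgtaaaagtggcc
E2F2, chr1:23531238-23531305 on the minus strand: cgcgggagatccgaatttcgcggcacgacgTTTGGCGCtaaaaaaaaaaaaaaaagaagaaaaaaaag
RBL1, chr20:37095998-37096053 on the minus strand: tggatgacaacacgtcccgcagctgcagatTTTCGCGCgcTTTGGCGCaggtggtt
CDC25A, chr3:48188424-48188491 on the minus strand: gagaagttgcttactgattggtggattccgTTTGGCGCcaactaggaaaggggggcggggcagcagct
MCM6, chr2:135876492-135876625 on the minus strand: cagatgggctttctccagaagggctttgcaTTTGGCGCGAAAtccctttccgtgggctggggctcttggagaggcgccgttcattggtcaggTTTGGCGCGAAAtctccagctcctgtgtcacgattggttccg
RBL1 has both words within its last 26 bases before the start, and MCM6 has each word at 2 places, where they overlap on opposite strands. The E2F1 word begins 20 bases and the CDC25A word 44 bases before the start.

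**Figure D1:**
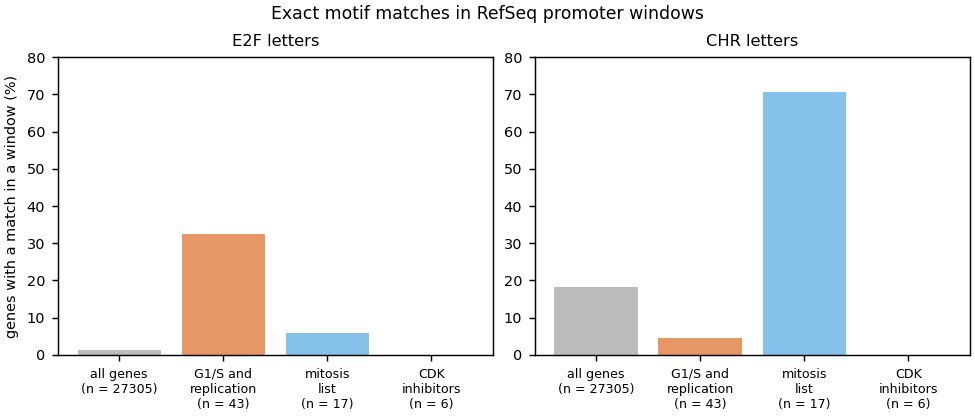
Share of genes, in percent, with an exact match to the E2F words (left) and to the CHR word (right) in any RefSeq promoter window, for all genes with a window, the 51-gene group, the mitosis list and the CDK inhibitors. The E2F share is 32.6% in the G1/S and replication genes and 5.88% in the mitosis list, and the CHR share is 4.65% and 70.6%.

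All 51 members were above the floor on all 3 arrays. Against control, the LATS2 array had no member past 2-fold in either direction, where 0.963% of the 13186 genes reaching the floor were higher and 0.842% lower by that much. It had no member past 1.5-fold either, against 5.85% higher and 4.41% lower among all genes. The LATS2N array had no member past 2-fold against control, with 0.944% of all 13245 genes higher and 0.566% lower. At 1.5-fold, 1 member was lower, RBL1, and none higher, against 3.27% and 4.86% of all genes. In LATS2 against LATS2N, 1 member was past 2-fold, RBL1, higher on the LATS2 array, where 0.592% of all genes were higher and 1.0% lower. It was also the only member past 1.5-fold there, beside 4.27% of all genes higher and 5.07% lower. Apart from RBL1, no member reached the 2-fold call in any of the 3 comparisons. The arrays read RNA from whole cultures, so fewer cycling cells and less RNA per cell cannot be told apart in any of these values.

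**Figure D2:**
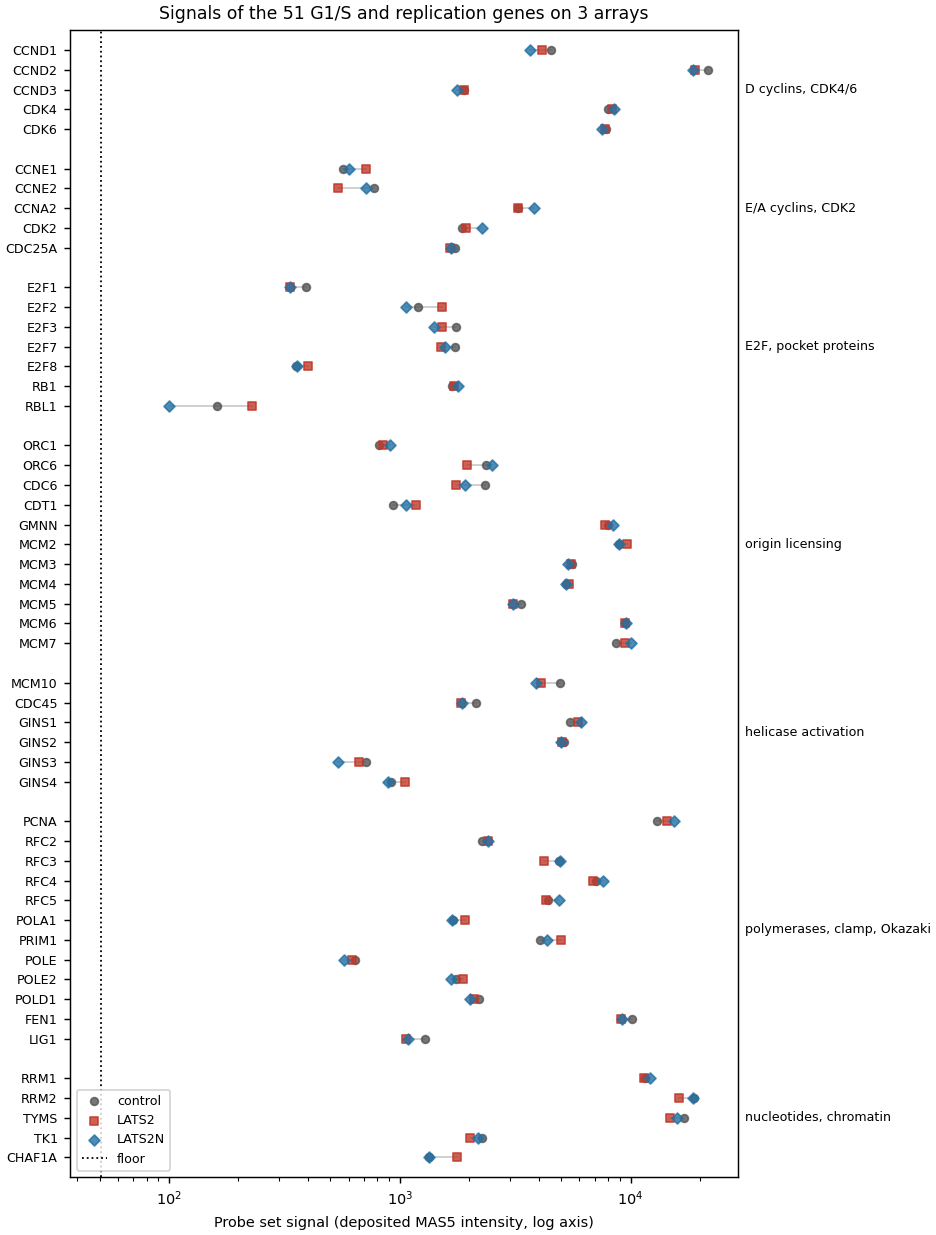
Signal of each of the 51 genes on the control (grey circle), LATS2 (red square) and LATS2N (blue diamond) array, in deposited MAS5 intensity on a log axis, in 7 role groups; probe sets differ in affinity, so signals are compared between arrays and not between genes. The 3 markers nearly coincide for most genes, and RBL1 has the widest gap, from 100.4 to 228.

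The size of these differences was set beside the spread between probe sets of the same gene, since each group is 1 array. That spread is a robust standard deviation of the log2 ratio, scaled to 1 probe set. For LATS2 against control it was 0.34 for genes whose dimmer array read 100 to 200, 0.19 for 500 to 2000, and 0.11 for those above 2000. For LATS2N against control it was 0.34, 0.15 and 0.087, and for LATS2 against LATS2N 0.35, 0.16 and 0.095. It covers noise between probe sets and not differences between cultures. By 2 times this spread, LATS2 against control had 2 higher members (3.92%) and 3 lower ones (5.88%), beside 7.99% and 5.38% of all genes. On the LATS2N array 3 were higher (5.88%) and 5 lower (9.80%), beside 7.9% and 6.02%. In LATS2 against LATS2N 4 were higher (7.84%) and 6 lower (11.8%), beside 7.62% and 6.61%. The shares among members lay on both sides of those of all genes, and the difference was not tested. Past that spread with LATS2 against control were PRIM1 and CHAF1A (higher) and CCNE2, CDC6 and MCM10 (lower). With LATS2N they were CCNA2, MCM7 and PCNA (higher) and CCND1, CCND2, E2F3, MCM10 and GINS3 (lower). Between the constructs E2F2, RBL1, PRIM1 and CHAF1A were higher on the LATS2 array. CCNE2, CCNA2, ORC6, RFC3, RFC5 and RRM2 were lower there.

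The D-type cyclins and their kinases, which start the phosphorylation of RB1, differed little by their brightest probe sets. CCND1, the cyclin that Wnt and growth factor signals induce, gave 4513, 4142 and 3665 on the control, LATS2 and LATS2N arrays, so the control was the highest and LATS2N the lowest. Against control its log2 ratio was -0.12 with LATS2 and -0.30 with LATS2N, and its other probe set gave -0.34 and -0.27. CCND2, another D-type cyclin, was likewise highest on the control array at 21573, 19122 and 18669, with log2 ratios of -0.17 and -0.21. CCND1 and CCND2 on the LATS2N array were the members of this group past 2 times the spread. All 4 CCND2 probe sets were lower on both construct arrays. The dimmest on the LATS2 array gave 719 on the control array, 262 with LATS2 and 322 with LATS2N, 2.74-fold and 2.23-fold lower, while the brightest moved far less. CCND3 gave 1899.8, 1901 and 1766. The kinase CDK4 gave 7986, 8274 and 8510.5, and CDK6 gave 7795, 7719 and 7500.5, with log2 ratios between -0.06 and 0.09 against control. Of the 6 usable CDK6 probe sets, 6 were lower with LATS2 and 5 with LATS2N. The next brightest gave -0.26 and -0.07, and 2 dim ones gave -0.50 and -0.54, and -0.32 and -0.58. The kinase signals were therefore close on all 3 arrays by the brightest probe sets only. The CCND1 and CCND2 signals were higher on the control array than on either construct array.

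Among the cyclins and the kinase that act next, the E-type cyclins went in opposite directions on the LATS2 array. CCNE1, a cyclin that activates CDK2 at the start of S phase, gave 570.1, 717 and 601, highest on the LATS2 array, with a log2 ratio of 0.33 there and 0.08 on the LATS2N array. CCNE2, the other E-type cyclin, gave 771, 539.7 and 714, lowest on the LATS2 array, with log2 ratios of -0.52 and -0.11. It had the lowest ratio of all members on the LATS2 array against control, 1.43-fold lower, past 2 times the spread. The dimmer CCNE2 probe set gave 149, 134 and 163, a smaller difference in the same direction on the LATS2 array and the opposite one on LATS2N. CCNA2, the cyclin of S phase and G2, gave 3241, 3245 and 3802, and its log2 ratio of 0.23 on the LATS2N array was past 2 times the spread, but its other probe set gave -0.08. CDK2 was also highest on the LATS2N array, at 1864, 1939 and 2281 over the 3 arrays, with a log2 ratio of 0.29, and its dimmer probe set gave 0.42. CDC25A, the phosphatase that activates CDK2, gave 1742, 1656 and 1659, and its 3 probe sets were all lower on both construct arrays, with log2 ratios of the brightest of -0.07 and -0.07.

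The E2F factors and pocket proteins held the widest gap between the constructs, that of RBL1. RBL1, the pocket protein p107, which represses E2F genes and is itself an E2F target, gave 161, 228 and 100.4. It was highest on the LATS2 array and lowest on the LATS2N array, and all 3 signals were dim. Against control its log2 ratio was 0.50 in LATS2 and -0.68 in LATS2N, and it was 1.18 between the constructs, 2.27-fold higher on the LATS2 array. Its other usable probe sets did not carry that size: the next brightest gave 92.8, 89.0 and 91.8, with a log2 ratio of -0.04 between the constructs, and the dimmer gave 53.8, 60.9 and 40.3, near the floor. With the median over probe sets the log2 ratio between the constructs was 0.27, below the call.

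E2F2, an activator E2F, was the other member of that group with a large gap between the constructs. It gave 1203, 1518 and 1060.2, with a log2 ratio to control of 0.34 in LATS2 and -0.18 in LATS2N, and of 0.52 between them. Its 2 dimmer probe sets had the same order, with 77.4, 139 and 56.1 on the brighter of them and 39.1, 77.4 and 28.5 on the other. The LATS2 array was thus the highest on all 3 E2F2 probe sets and the LATS2N array the lowest, though 1 of them was below the floor on 2 arrays. E2F1, the founding activator, gave 391, 334 and 334, highest on the control array, and its log2 ratios were -0.22 and -0.23, within the spread of its signal range. E2F3, another activator, gave 1755, 1521 and 1413, and both its probe sets were lower on both construct arrays, with -0.21 and -0.31 for the brightest. The atypical repressor E2F7 gave 1734, 1508 and 1567 and E2F8 gave 356, 399 and 359.9. RB1 itself gave 1685, 1724 and 1784, with log2 ratios of 0.03 and 0.08.

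**Figure D3:**
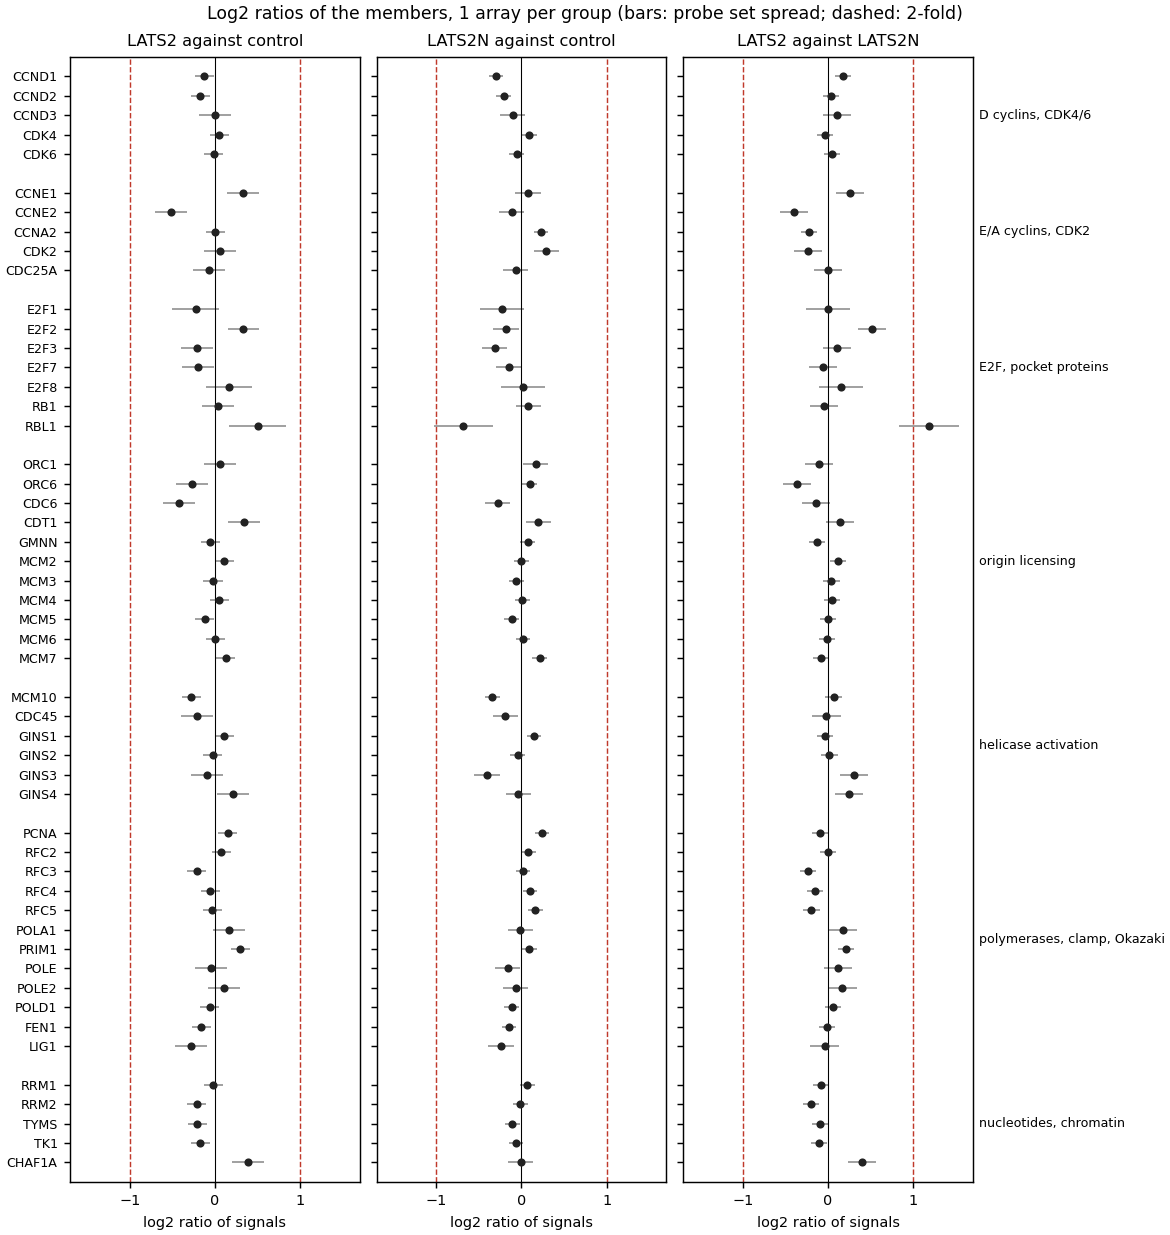
Log2 ratio of each member in the 3 comparisons, with bars of 1 robust standard deviation between probe sets of a gene at that signal and dashed lines at 2-fold. RBL1 in LATS2 against LATS2N, at 1.18, is the only point past a dashed line.

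Origin licensing loads the MCM2 to MCM7 helicase onto DNA in G1. By their brightest probe sets the 6 ring subunits were nearly level. Their log2 ratios ran from -0.12 to 0.13 in LATS2 and from -0.11 to 0.21 in LATS2N against control. MCM6 gave 9463, 9501 and 9574, and MCM2 gave 8937, 9654 and 8933. MCM7, at 8670.5, 9461 and 10050.5, was highest on the LATS2N array and past 2 times the spread there, though its other probe set gave 0.03. MCM3 gave 5600.4, 5515 and 5364, MCM4 gave 5234, 5425 and 5263 and MCM5 gave 3348, 3086 and 3093. The other MCM5 probe set gave -0.18 with LATS2 and -0.28 with LATS2N against control, and the dim second one of MCM6 gave 0.20 and -0.19. Of the 4 usable MCM4 probe sets, 1 was higher than control with LATS2 and 3 with LATS2N. CDC6, which recruits the ring with CDT1, gave 2335, 1745 and 1922, highest on the control array, with log2 ratios of -0.42 and -0.28. Its other probe set gave -0.22 and -0.29, so both were lower on both construct arrays. CDT1, at 931, 1177 and 1066, was lowest on the control array by its brightest probe set, with 0.34 and 0.19, but the other gave -0.35 and -0.40, and both are of the kinds that may share targets with other genes or transcripts. The CDT1 inhibitor geminin, GMNN, gave 8015, 7726 and 8434. The origin recognition subunit ORC6 gave 2354, 1958 and 2513, lowest on the LATS2 array, with -0.27 against control and -0.36 against LATS2N, the latter past 2 times the spread. ORC6 was read by 1 probe set, also of the kinds that may share targets. ORC1, the largest subunit, gave 810.2, 844 and 909.

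Helicase activation turns the loaded ring into the moving helicase by adding CDC45 and the GINS complex. MCM10, which takes part in that step, gave 4957, 4091 and 3912, and its log2 ratios against control were -0.28 and -0.34, both past 2 times the spread. A dimmer probe set gave -0.48 and -0.25, while the other gave 0.07 and 0.07, so its probe sets disagreed. CDC45 gave 2132, 1843 and 1867, highest on the control array, with -0.21 and -0.19 from 1 probe set. Among the GINS subunits, GINS1 gave 5482, 5909 and 6076 and GINS2 gave 5132, 5037 and 4982. GINS3 gave 712, 666 and 538, lowest on the LATS2N array with a log2 ratio of -0.41, and its other probe set gave -0.11 there. GINS4 gave 914, 1057 and 891, highest on the LATS2 array with 0.21. The 4 GINS genes therefore did not share an order over the arrays.

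At the fork, the sliding clamp PCNA gave 13008, 14449 and 15369 from 1 probe set, lowest on the control array. Its log2 ratios were 0.15 and 0.24, the latter past 2 times the spread. The clamp loader subunits gave 2278, 2400.1 and 2409 for RFC2, 4909.9, 4228 and 4967 for RFC3, 7112, 6861 and 7620.3 for RFC4 and 4389, 4294 and 4918 for RFC5. RFC3 and RFC5 were lower on the LATS2 than on the LATS2N array by log2 ratios of -0.23 and -0.20, past 2 times the spread, with all 3 probe sets of each in that direction. The DNA primase subunit PRIM1 gave 4065, 5003 and 4327, with 0.30 against control in LATS2 and 0.09 in LATS2N. By its 1 probe set PRIM1 was past 2 times the spread on the LATS2 array against both others. POLA1, the catalytic subunit of polymerase alpha, which extends primers, gave 1702, 1909 and 1687. The leading strand polymerase subunits POLE and POLE2 gave 640.2, 620.2 and 573 and 1753, 1881 and 1673, and POLD1, the catalytic subunit of polymerase delta, gave 2195, 2108 and 2025. Their log2 ratios against control lay between -0.16 and 0.17. FEN1, the flap nuclease of Okazaki fragments, gave 10198, 9134 and 9204, and LIG1, the ligase that joins them, gave 1288, 1059 and 1090.4. LIG1 was highest on the control array, with log2 ratios of -0.28 and -0.24, from 1 probe set and short of 2 times the spread.

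Of the nucleotide supply genes, 3 read lower with LATS2 than with the empty vector on every probe set at or above the floor there. RRM2, the regulated subunit of ribonucleotide reductase, gave 18811, 16219 and 18649.5, with log2 ratios of -0.21 and -0.01, and its other probe set gave -0.45 and -0.07. The LATS2N array therefore read like the control for RRM2, and the LATS2 array was lower than LATS2N by -0.20, past 2 times the spread. Thymidylate synthase, TYMS, gave 17069, 14796 and 15839, with -0.21 and -0.11, and thymidine kinase, TK1, gave 2273, 2019 and 2173, with -0.17 and -0.06. RRM1, the large subunit of the reductase, gave 11565, 11419.7 and 12109, with -0.02 and 0.07. CHAF1A, which deposits histones behind the fork, gave 1341, 1762 and 1334 by its brightest probe set. Its log2 ratio was 0.39 on the LATS2 array against control and -0.01 on LATS2N. The next 2 gave -0.15 and -0.07 with LATS2 and -0.65 and -0.73 with LATS2N. All 3 CHAF1A probe sets above the floor were higher on the LATS2 than on the LATS2N array, by 0.40, 0.50 and 0.66, and all 3 are of the kinds that may share targets.

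**Figure D4:**
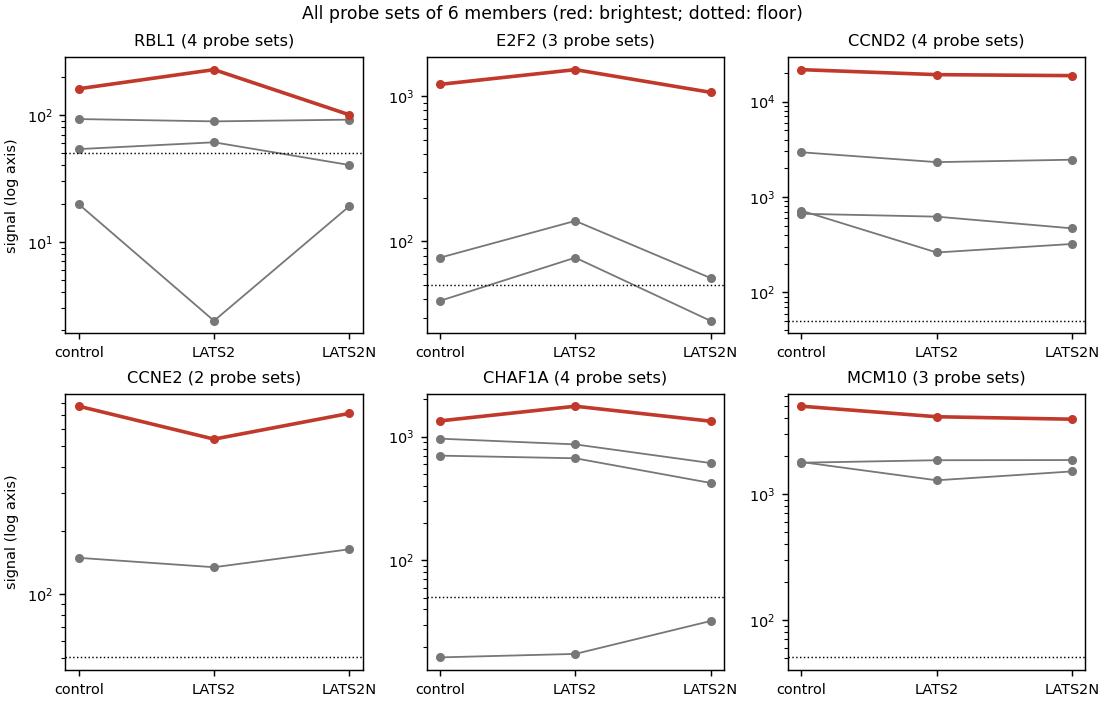
Signals of every probe set of 6 members on the control, LATS2 and LATS2N arrays, on log axes whose ranges differ between panels; the brightest probe set is red and the dotted line is the floor of 50.5. The 3 E2F2 probe sets share an order over the arrays, while those of RBL1, CCND2, CCNE2, CHAF1A and MCM10 do not.

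Over the whole group the median log2 ratios of the members were close to zero. On the LATS2 array 28 of 51 were below control (54.9%), beside 45.2% of all genes reaching the floor. The median log2 ratio was -0.02, against 0.03 over those genes. On the LATS2N array 30 of 51 were below control (58.8%), beside 46.4% of all genes, with a median of -0.04 against 0.02. With median centring the LATS2N count was 26 of 51. Both construct arrays use the same control array, so these counts are not independent. Between the constructs 27 of 51 were below zero (52.9%), beside 47.7% of all genes, with a median of -0.0034 against 0.01. With quantile normalisation the median of the members turned to 0.0043 and 24 were below zero. When genes were limited to those reaching 500 on either array, 27 of 48 members were below zero on the LATS2 array, where 43.7% of 7402 genes were, and 28 of 48 on the LATS2N array, where 47.7% of 7341 were. From the 5th to the 95th percentile the members' log2 ratios ran from -0.28 to 0.34 on the LATS2 array, and those of the 7500 genes that reached 500 on any array from -0.39 to 0.44. The control array was the highest of the 3 for 22 members, LATS2N for 16 and LATS2 for 13. Both construct arrays were thus below control for 43.1% of the members, beside 28.4% of the 11534 genes that no array read under the floor, and both comparisons rest on that 1 control array.

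**Figure D5:**
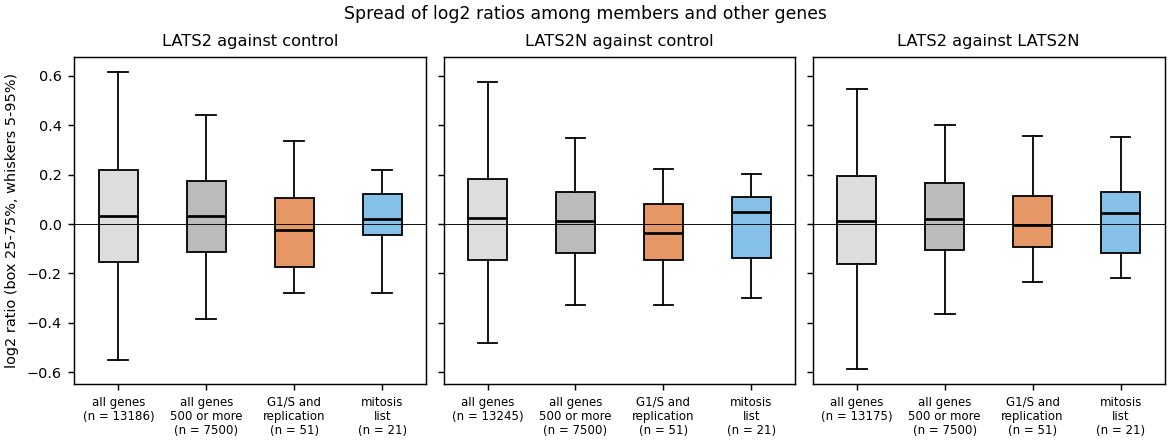
Log2 ratios in the 3 comparisons for all genes reaching the floor, genes that reached 500 on any array, the 51 members and the 21 genes of the mitosis list; boxes span the 25th to 75th percentile with the median, whiskers the 5th to 95th. The medians of the members are -0.02, -0.04 and -0.0034, and the boxes overlap those of the other genes.

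By role, the group medians on the LATS2 array against control ran from -0.17 for the nucleotide and chromatin genes to 0.03 for the E2F and pocket protein genes. On the LATS2N array they ran from -0.18 for the E2F and pocket protein genes to 0.08 for the E- and A-type cyclins with CDK2 and CDC25A. The mitosis list, which holds genes such as CCNB1 and PLK1 that act after S phase, had a median of 0.02 in LATS2 and of 0.05 in LATS2N against control, with 8 of 21 genes below control on each and none past 2-fold. At 2-fold, 0.963% of all genes were higher and 0.842% lower with LATS2, and 0.944% and 0.566% with LATS2N. CDC25C, the phosphatase that activates CDK1, gave 560.0, 905 and 603, 1.62-fold higher on the LATS2 array than on control. MKI67, a proliferation marker, gave 3300.4, 2439 and 2234, and all 4 of its probe sets were lower on both construct arrays. The difference between the members and the mitosis list was not tested.

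Members with and without the E2F letters were set side by side. The 14 members with the letters had a median log2 ratio of 0.05 on the LATS2 array, with 6 below control, and -0.06 on the LATS2N array, with 10 below. The 29 members with a window and no match had -0.03, with 18 below, and -0.0075, with 15 below. RBL1, E2F2, CDC6 and MCM7, all with the letters, were among the 5 highest or lowest members of a comparison. So were CHAF1A, MCM10, LIG1, CDT1, CCNE1, ORC6, GINS3, E2F3, PCNA, CCNA2 and RFC3, which have none in their windows. The others at the ends, CCND1, CCNE2 and CDK2, have no window.

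Other genes of the pathway were read from 6 lists with 73 genes, of which 70 had a probe set of their own and all 70 reached the floor. None was past 2-fold in any of the 3 comparisons, where the share of all genes ran from 0.566% to 1.0% per direction. At 1.5-fold, 1 was higher and 1 lower on the LATS2 array, with the same counts on LATS2N. Among all genes 5.85% were higher and 4.41% lower with LATS2, and 4.86% and 3.27% with LATS2N. Between the constructs LATS2 had 2 higher and 1 lower than LATS2N, beside 4.27% and 5.07% of all genes. The lower gene in each construct was CDKN1A, which encodes the CDK inhibitor p21. It gave 418, 260.1 and 263, so both construct arrays were lower than control, by 1.61-fold and 1.59-fold, and its log2 ratios were -0.68 and -0.67 from 1 probe set. By their representative probe sets the other CDK inhibitors did not share a difference of this size. CDKN1B, which encodes p27, gave 2812, 2889 and 2894. CDKN2A, which encodes p16 and ARF, gave 4101, 4557 and 4804, and CDKN2B gave 959, 1007 and 949. CDKN2D gave 233, 215 and 209, slightly lower on both construct arrays. CDKN1C gave 1227, 1340.0 and 1504 with probe sets that disagreed in direction. Of these, 1 probe set gave 683, 422 and 461, with log2 ratios of -0.70 and -0.57, close to those of CDKN1A. It is of the kinds that may share targets. CDKN2C was not analysed here.

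The higher gene on the LATS2 array was RBL2, the p130 pocket protein of the DREAM complex. It gave 518, 989 and 603, 1.91-fold higher on the LATS2 array than on control and short of the 2-fold call, and its other probe set was below the floor on all 3 arrays. RBL1 and RBL2 were thus both highest on the LATS2 array, but on the LATS2N array RBL1 was below control and RBL2 above it. The DREAM list, RBL2 included, was mixed, with 4 of 11 genes above control on the LATS2 array and 6 on LATS2N. DYRK1A, the kinase through which LATS2 acts on DREAM, gave 3075, 2959 and 2706, and E2F4 gave 827, 711 and 674. The MuvB gene LIN52 was 1.64-fold higher on the LATS2N array than on control by its representative probe set, at 325, 322 and 534, while the other gave 364, 391 and 385. LIN37, another MuvB gene, gave 607, 850.0 and 669.8, and the E2F partner TFDP1 gave 16790.3, 13469 and 14119, highest on the control array, with 2 of its 3 probe sets in that direction for each construct.

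Of the remaining initiation factors, DONSON, a replisome assembly factor, gave 3502, 2504 and 2748, lower on both construct arrays with log2 ratios of -0.48 and -0.35. TICRR, which brings CDC45 to origins, gave 437, 352 and 319, with -0.31 and -0.45 and 2 probe sets in the same direction. The list of 15 such factors had medians of -0.08 and -0.00075. Other fork factors had medians of 0.08 and 0.09 over 17 genes. There the single-strand binding subunit RPA3 gave 6371, 8258 and 8093 and the checkpoint mediator CLSPN gave 782, 658 and 611. The remaining S-phase supply and chromatin genes had medians of 0.10 and -0.01 over 11 measured genes, with DUT, the dUTPase, at 18882, 23799.6 and 20989.8 by a probe set whose direction against control the other 2 did not share, and the histone chaperone NASP at 7552, 9223 and 7719.8. Of the G1/S ubiquitin ligases and regulators, CABLES1, a CDK-binding protein, gave 3517, 4220.4 and 2625, and all 3 of its probe sets were higher on the LATS2 than on the LATS2N array, the brightest by 1.61-fold. FBXW7, the ligase subunit that marks cyclin E for breakdown, gave 564, 476 and 405, and MYBL2, an E2F target, gave 2955, 2440.1 and 2436.

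Probe sets of a gene went the same way for 21 of 30 members with more than 1 usable probe set on the LATS2 array against control, for 18 of 32 on LATS2N and for 14 of 32 between the constructs. Over all 109 member probe sets, 64 of the 98 usable ones were below control with LATS2 and 61 of 100 with LATS2N, with medians of -0.07 and -0.07. Past 2-fold were 1 CCND2 probe set, lower in each construct, and between the constructs 1 probe set each of RBL1 and E2F2, higher on the LATS2 array. In these counts of single probe sets, a gene with several usable ones enters more than once. Matching counts for probe sets of other genes were not made, so a shift of the members against such a background was not tested.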

How the data were processed

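RNA from 3 cultures, 1 array per group, was measured on Affymetrix arrays. The deposited values are linear probe set intensities. The submitters' processing notes name MAS5. Its version and settings are not given in the sources used here. The trimmed mean (lowest and highest 2% left out) was 500.1 on all 3 arrays, so each had been scaled to one target. Median signals were 51.1, 49.4 and 51.0. Of 54675 probe sets, 41091 had exactly 1 gene symbol, 1801 had several and 11721 non-control probe sets had none in the platform annotation used here, and 62 are controls. Symbols were updated by gene identifier to the RefSeq table of GRCh38.p14 for 41037. The brightest probe set by mean log2 signal stood for a gene.

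Log2 ratios were taken after raising signals to the floor of 50.5, and a gene was called by size alone at 2-fold. No test was possible. The named genes are all 51 members, the 5 highest and 5 lowest per comparison with their other probe sets, all CDK inhibitors, and the genes of the other lists past 2-fold or furthest from 0, of which not all are printed. CCNB1, MKI67, CDC25C and further list genes shown as examples were chosen after their values were seen. The members and all lists were chosen with earlier results of these data known. A planned search for protein motifs was not run, since no protein sequences were used here. Python 3.11.15, numpy 2.4.6, pandas 2.3.3 and matplotlib 3.10.9 were used.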

Additional observations from a re-analysis of the deposited data

How the results depend on the processing

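The 8 alternatives were floors at the 25th and 75th percentile of all signals (14.5 and 360.0), no floor, quantile normalisation, median centring of the arrays, the median over probe sets, leaving out probe sets of possible shared targets, and a 1.5-fold call. No member was called in LATS2 against control under any of them. In LATS2N against control the 1.5-fold call gave 1 lower member, RBL1, in place of 0. In LATS2 against LATS2N the count of higher members was 1, and 0 with the floor at the 75th percentile, where RBL1 lies below the floor, and 0 with the median over probe sets, where the RBL1 log2 ratio was 0.27. Medians of the members stayed within 0.1 of the reported values everywhere, but that margin is wider than the medians themselves. Over the settings they ran from -0.053 to -0.0087 in LATS2 against control and from -0.046 to -0.015 in LATS2N against control. Between the constructs they ran from -0.046 to 0.0043. The count of members below zero between the constructs ran from 24 with quantile normalisation to 32 with median centring among the settings that kept all 51. With the median over probe sets, 32 of 153 member ratios moved by more than the spread between probe sets. Without probe sets of possible shared targets 14 of 114 did, and 13 members were left without a value. With quantile normalisation 3 of 153 did. The lower floor and no floor could move none, because all 51 members were above the main floor on all 3 arrays. The floor at the 75th percentile could change only members with a signal below 360.0. Median centring shifted all ratios of a comparison by the same amount, which was smaller than the spread. The total, 49 of 1027, therefore includes many ratios that could not move. No called ratio turned sign, but RBL1 between the constructs was the only one. Under quantile normalisation or median centring, ratios of 1 to 5 members per comparison turned sign. They were at most 0.04 in size, among them RRM2 in LATS2N against control. Larger ratios turned sign when probe sets were combined or left out. With the median over probe sets, CHAF1A went from 0.39 to -0.07 in LATS2 against control. CDT1 went from 0.19 to -0.10 in LATS2N against control. Without probe sets of possible shared targets, MCM10 went from -0.28 to 0.07 with LATS2 and from -0.34 to 0.07 with LATS2N. No paired analysis was possible because each group is 1 array and the labels give no replicate numbers. Signals near the floor limit RBL1 most, and no setting supplies the missing spread between cultures.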
